A study of Mus musculus with 23 samples.

Results

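The genes described here are 10 mouse genes of glutathione metabolism and the NRF2 response, Gclc, Gclm, Gsr, Gpx1, Gpx2, Gpx4, Txnrd1, Srxn1, Nqo1 and Hmox1, named as a list and not chosen by a threshold, out of 22350 protein-coding genes in the tables. They were measured by RNA-seq in small intestinal organoids, which are crypt cells grown as mini-guts, and by Ribo-seq, which sequences the mRNA fragments ("footprints") protected by ribosomes, in organoids and in mice. The study asked how intestinal stem cells respond when translation is impaired by loss of Raptor (gene Rptor), an essential part of the growth-promoting kinase complex mTORC1. All animals were C57BL/6. WT organoids for RNA-seq (2 lines) carried VillinCre.ERT2.RPL22.HA, in which a tamoxifen-activated Cre acts in intestinal epithelium and switches on an HA tag on ribosomal protein RPL22. Rptor fl/fl organoids carried VillinCre.ERT2.Rptor.fl/fl for RNA-seq (2 lines). For Ribo-seq (3 cultures) they were VillinCre.ERT2.Rptor.fl/fl.RPL22.HA, so that the tag was labelled in one assay only. Stem cell enriched (SCe) organoids (3 for RNA-seq, 3 for Ribo-seq) carried VillinCre.ERT2.RPL22.HA and were grown with 10 µM CHIR 99021, which activates WNT signalling, and 1.5 mM valproic acid, a histone deacetylase inhibitor. The mice were Lgr5Cre.ERT2.RPL22.HA (WT, 3) or, as the Rptor fl/fl group (3), Lgr5Cre.ERT2.Rptor.fl/fl.RPL22.HA, in which Cre is driven from the stem cell gene Lgr5 and tagged ribosomes were pulled down with an HA antibody. The labels give the treatment of all but SCe organoids as untreated, while the study's methods describe tamoxifen induction.

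Glutathione is a small thiol peptide that cells use to destroy peroxides. Glutamate-cysteine ligase, made of the catalytic subunit Gclc and the modifier Gclm, makes the first and rate-limiting bond, glutathione peroxidases (Gpx1, the intestinal Gpx2, and Gpx4, which protects membrane lipids) spend it, and glutathione reductase (Gsr) restores it. Thioredoxin reductase 1 (Txnrd1) and sulfiredoxin (Srxn1) keep the parallel thioredoxin and peroxiredoxin system reduced, Nqo1 reduces quinones, and heme oxygenase 1 (Hmox1) breaks down heme. Many of these genes are known targets of the transcription factor NRF2 (gene Nfe2l2), which is held down by KEAP1 and binds antioxidant response elements together with small MAF proteins such as MAFG, in competition with BACH1.

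On mm10, Gclc (chr9:77754535-77794485) and Gpx1 (chr9:108338903-108340343) are on chromosome 9, Gpx4 (chr10:80047166-80056439) and Txnrd1 (chr10:82833951-82897712) on chromosome 10, and Gsr (chr8:33652523-33698163), Hmox1 (chr8:75093621-75100589) and Nqo1 (chr8:107388225-107403206) on chromosome 8. Gclm (chr3:122245557-122270732), Srxn1 (chr2:152105516-152111376) and Gpx2 (chr12:76792333-76795554) share a chromosome with no other member. Gpx2 and Nqo1 lie on the minus strand. Only protein-coding sequences were counted, so reads of any pseudogene copies cannot be told apart from those of the genes.

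Of the 10 genes, 4 encode selenoproteins, in which an in-frame UGA codon is read as selenocysteine, so that ribosome footprints can continue past a triplet that elsewhere ends translation. The coding stretch around that codon is shown for each because it is the feature that sets these members apart from the other 6. The sequences were read from GENCODE vM21 transcripts on mm10, 5′ to 3′ on the gene's strand, with the UGA codon (TGA in DNA) in capitals.
Gpx1, chr9:108339430-108339474, plus strand: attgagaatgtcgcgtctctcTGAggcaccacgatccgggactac
Gpx2, chr12:76795235-76795279, minus strand: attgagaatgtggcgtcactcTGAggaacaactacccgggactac
Gpx4, chr10:80054716-80054760, plus strand: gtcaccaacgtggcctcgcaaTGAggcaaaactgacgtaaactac
Txnrd1, chr10:82896016-82896045, plus strand: gacatcctccagtctggctgcTGAggttaa
The Gpx1 and Gpx2 stretches matched at 39 of 45 bases (86.7%), and the Gpx1 and Gpx4 stretches at 25 of 45 (55.6%). The UGA is codon 47 of 201 in Gpx1, codon 40 of 190 in Gpx2, codon 129 of 253 in the longest Gpx4 form and codon 612 of 613 in the longest Txnrd1 form, where the line above ends with the true stop codon.

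Promoters were searched for the core of the antioxidant response element, TGACNNNGC, on both strands, in RefSeq windows (GRCm38.p6) from 250 bases before to 50 bases after a start site. Windows were given for 7 of the 10 genes (not Gclc, Gsr and Hmox1), and 3 of these held a match, each on the reverse strand. Over all windows of this length 12.4% held one, and 14% of genes had at least one window with a match. The matches are printed with 10 bases on each side and with the 9 bases of the element, read on the gene's strand, in capitals.
Gclm, chr3:122245413-122245441, plus strand: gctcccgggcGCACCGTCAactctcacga
Txnrd1, chr10:82859104-82859132, plus strand: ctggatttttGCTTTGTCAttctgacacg
Srxn1, chr2:152105542-152105570, plus strand: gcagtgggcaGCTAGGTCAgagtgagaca
A match is only a description of the letters in this window.

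The RNA-seq libraries held 23802944 to 67598878 reads on genes, and the organoid Ribo-seq libraries 1106178 to 8257457 footprints on coding sequences. The mouse libraries held 772077 to 8238388 footprints, counted on longer entries than in organoids. Rptor mRNA was 3.28-fold lower in Rptor fl/fl than in WT organoids (log2 -1.71 ± 0.0835 SE, adjusted p = 0.00516). Rptor footprints did not pass the test in organoids against SCe (log2 -0.53, adjusted p = 0.318, groups overlapping) or in mice (log2 -0.28, adjusted p = 0.15, with 32.5 to 36.7 CPM (normalized counts per library, scaled to a common depth) in Rptor fl/fl and 39.5 to 44.5 in WT mice). The Ribo-seq libraries labelled Rptor fl/fl are therefore called that from their labels alone. Epithelial markers had reads in every group (8 of 8 genes). The mouse libraries also carried RNA of other cells, with 5 of 5 erythroid, 11 of 11 immune, 6 of 6 plasma cell and 5 of 5 smooth muscle markers detected, although Cre was driven from Lgr5. Lgr5 itself stood at 45.6 CPM in Rptor fl/fl mouse 1 and at 6.29 to 11.3 in the other 5 mice. In bulk libraries, fewer cells of a type and less RNA per cell cannot be told apart.

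By the deposited TPM, which corrects for length and so allows comparison between genes in RNA-seq, the glutathione peroxidases led in that assay. In WT organoids Gpx2 was highest at 958 ± 104 TPM (SD, n = 2 lines), followed by Gpx1 at 807 ± 40.1 and Gpx4 at 379 ± 0.0205, and no pair of these overlapped. Txnrd1 (153 ± 13.7 TPM) and Gsr (137 ± 10.8) overlapped each other, Gclm stood at 103 ± 2.38, Nqo1 (79.9 ± 19.0) and Gclc (67.4 ± 3.17) overlapped, and Srxn1 (34.3 ± 0.299) and Hmox1 (11.7 ± 3.98) were lowest. The order changed with condition. In SCe organoids Gpx2 reached 1304 ± 255 TPM (n = 3) while Gpx1 was at 287 ± 22.5, and in Rptor fl/fl organoids Gpx1 (762 ± 47.9) and Gpx2 (705 ± 108) overlapped. Among mouse footprints Gpx4 was highest, at 247 ± 28.0 TPM in WT (n = 3), and Gpx2 at 86.3 ± 5.82 overlapped with Txnrd1 at 87.2 ± 1.11 and with Gclm at 82.4 ± 6.62. Hmox1 was the lowest member in both mouse groups, at 3.80 ± 0.366 TPM in WT and 8.36 ± 2.10 in Rptor fl/fl. Footprint TPM rests on effective lengths cut by the same amount in short and long genes. In mice Gpx2 counted as 534 of 783 bases and Gclc as 1971 of 2220. This raises the footprint TPM of short genes most, so order and overlaps between genes of unlike length are uncertain there.

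**Figure D1:**
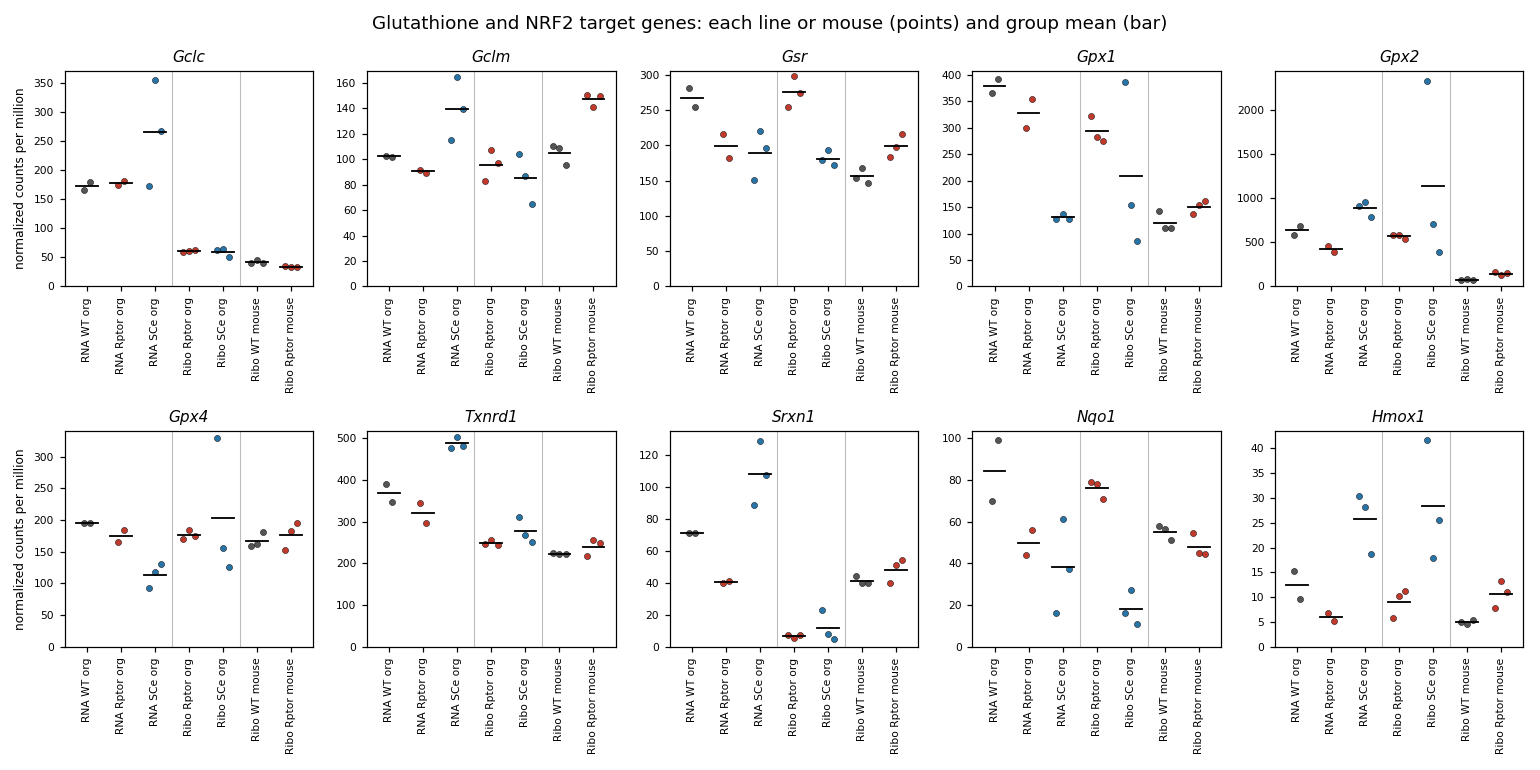
Normalized CPM (y axis, from 0, separate scale per gene) of the 10 genes in each organoid line or mouse (points) with the group mean (bar). RNA and footprint values are scaled within their own assay and are not comparable across the vertical lines. Gpx2 footprints in the SCe cultures spread from 389 to 2327, while the 3 Rptor fl/fl cultures lie between 538 and 585.

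The first comparison set these mRNAs in Rptor fl/fl organoids against WT organoids (2 lines against 2). The WT lines carried the RPL22.HA tag and the Rptor fl/fl lines did not, so that tag and Rptor genotype cannot be told apart here. Srxn1 and Gpx2 fell, no member rose, and 9 of the 10 had a log2 change below 0. Over all 14131 genes tested, 11.0% were called lower and 11.6% higher, so that 2 of 10 lower is not far from the background. Srxn1, the enzyme that repairs overoxidised peroxiredoxins, had 71.0 and 71.2 CPM in WT and 39.9 and 41.2 in Rptor fl/fl lines. The lines of a genotype almost coincided, and the fall was 1.75-fold (log2 -0.81 ± 0.0553 SE, adjusted p = 0.00855), called in each of 4 fits that left out a line (adjusted p at most 0.0267). Gpx2 had 581 and 687 CPM in WT and 462 and 391 in Rptor fl/fl lines. It was 1.49-fold lower (log2 -0.57 ± 0.130 SE, adjusted p = 0.0403), but the call was lost whichever of the 4 lines was left out (adjusted p from 0.0567 without Rptor fl/fl line 1 to 0.146 without WT line 2).

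The other members of this comparison did not pass the test. Hmox1 had 15.4 and 9.58 CPM in WT and 6.85 and 5.18 in Rptor fl/fl lines (log2 -1.05, adjusted p = 0.0557). Nqo1 had 70.0 and 99.2 against 43.9 and 55.9 (log2 -0.76, adjusted p = 0.0587). Gsr had 281 and 254 against 216 and 183 (log2 -0.42, adjusted p = 0.0513). The adjusted p of these 3 genes fell under 0.05 without Rptor fl/fl line 1 for Gsr (0.0479), without WT line 1 for Nqo1 (0.0346) and without WT line 2 for Hmox1 (0.0332). With DESeq2 in place of edgeR these 3 genes were called (adjusted p 0.00157 to 0.00565). The remaining changes were smaller, from log2 -0.21 for Gpx1 to 0.04 for Gclc, whose lines overlapped at 166 and 180.1 against 174 and 182 CPM. The median member change was log2 -0.32, against -0.0049 for all genes tested.

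A wider list of 132 genes of the same pathways held 127 tested genes, of which 12 rose and 34 fell (median log2 -0.20). The thioredoxin system had 7 of 14 lower and 1 higher (Txnip, the thioredoxin inhibitor, named after its value was seen, log2 0.83, adjusted p = 0.0109), and glutathione synthesis and reduction 6 of 20 lower and none higher. The non-members with the smallest adjusted p were Ggt1, which cleaves extracellular glutathione (log2 -3.25 ± 0.172 SE, adjusted p = 0.00565), Slc7a11, the cystine importer that feeds glutathione synthesis (log2 -2.69 ± 0.143, adjusted p = 0.00565), Taldo1 of the pentose phosphate pathway (log2 -0.90 ± 0.0609, adjusted p = 0.00855) and the exporter Abcc3, which rose (log2 0.88 ± 0.0666, adjusted p = 0.00894). Slc7a11 had 87.0 and 76.2 CPM in WT and 14.1 and 11.2 in Rptor fl/fl lines.

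Of the 4 regulators examined in every comparison, Nfe2l2 and Mafg rose. Nfe2l2 mRNA, which encodes NRF2, had 297.5 and 298.5 CPM in WT and 439 and 398 in Rptor fl/fl lines and rose (log2 0.49 ± 0.0764 SE, adjusted p = 0.0201). Its partner Mafg had 77.2 and 72.7 against 98.3 and 100.2 and also rose (log2 0.40 ± 0.0568, adjusted p = 0.0175). Keap1 (log2 -0.15, adjusted p = 0.168) and Bach1 (log2 0.07, adjusted p = 0.509) did not pass the test. Markers of intestinal stem cells moved in the same comparison, with 5 of 6 lower and a summed level of 3580 to 5147 CPM in WT against 817 to 2055 in Rptor fl/fl lines, and 4 of 6 goblet cell markers were higher. Paneth cell markers were lower in 5 of 6 genes (median log2 -1.82), with a sum of 4588 to 5529 CPM in WT against 834 to 1768 in Rptor fl/fl lines. Their part in these results was not tested.

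**Figure D2:**
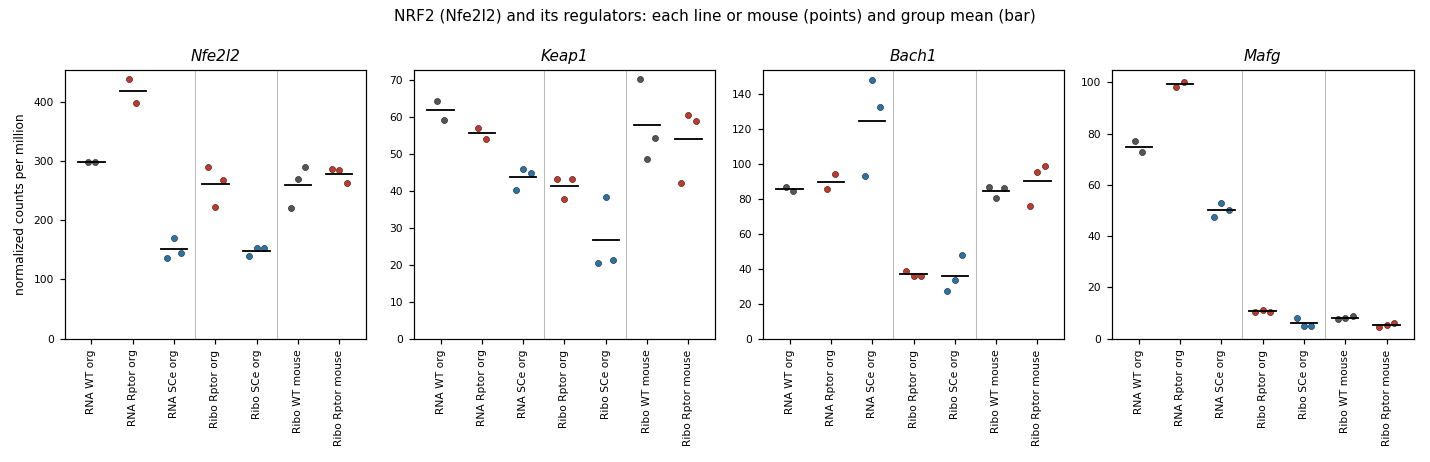
Normalized CPM (y axis, from 0) of Nfe2l2, Keap1, Bach1 and Mafg in each organoid line or mouse (points) with the group mean (bar). In RNA-seq, Nfe2l2 and Mafg are highest in Rptor fl/fl and lowest in SCe organoids, with no overlap, while the mouse groups overlap for Nfe2l2.

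The second comparison asked how stem cell enriched organoids differed from WT organoids (3 SCe against 2 WT lines). Hmox1, Srxn1, Gpx2 and Txnrd1 rose, and Gpx1 and Gpx4 fell. The background was 22.4% higher and 19.9% lower among 14925 genes. Gpx1 had 366 and 393 CPM in WT and 128, 137 and 128 in SCe lines, a fall of 2.86-fold (log2 -1.51 ± 0.0739 SE, adjusted p = 0.00114) that was called in every fit that left out a line. Gpx4 had 195 and 196 against 92.6, 118 and 131 (log2 -0.76 ± 0.155, adjusted p = 0.0165). Gpx2, a selenoenzyme like these 2, had 581 and 687 against 906, 959 and 783 and was 1.41-fold higher (log2 0.50 ± 0.134, adjusted p = 0.0356). Txnrd1, the remaining selenoenzyme, also rose.

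The other enzymes that rose changed by 1.35-fold to 2.10-fold. Txnrd1 had 389 and 346 CPM in WT and 478, 503 and 482 in SCe lines (log2 0.43 ± 0.0859 SE, adjusted p = 0.0155). Srxn1 had 71.0 and 71.2 against 89.0, 129 and 107 (log2 0.63 ± 0.168, adjusted p = 0.0349). Hmox1 had 15.4 and 9.58 against 30.5, 28.2 and 18.8 (log2 1.07 ± 0.305, adjusted p = 0.0426). All but Gpx1 of the 6 calls were lost without WT line 1, without WT line 2 and without SCe line 2 (adjusted p 0.0508 to 0.211), and those of Txnrd1 (0.0582) and Srxn1 (0.0929) also without SCe line 3. Nqo1 ranged from 16.0 to 61.3 CPM over the SCe lines against 70.0 and 99.2 in WT (log2 -1.12, adjusted p = 0.159). SCe line 1 was the lowest SCe line for Nqo1 and also for Gclc (172, against 355 and 268 in the other SCe lines), and without it Gclc, Gclm and Gsr passed the test (adjusted p = 0.00369, 0.00248 and 0.0134). Over all genes 9530 were called without SCe line 1, against 3343 higher and 2966 lower with it. The enterocyte markers of that line summed to 246 CPM, against 6082 and 7119 in the other SCe lines, and its Paneth cell markers to 382, against 2688 and 3289. Between SCe and WT lines, 4 of 6 goblet, 5 of 6 enteroendocrine and 5 of 8 epithelial markers were lower (median log2 -3.49, -4.78 and -0.61), and 3 of 4 tested stromal and endothelial markers were higher (median log2 3.45). Of 6 stem cell markers 2 were lower and 0 higher (median log2 0.05). Their sum was 840 to 1638 CPM in SCe and 3580 to 5147 in WT lines. The part of all these markers in the member differences was not tested.

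The Gclm value depended on transcript length. Its CPM were 103 and 102 in WT and 115, 164 and 139 in SCe lines (log2 0.47, adjusted p = 0.0702), but the mean effective length of its transcripts was 1220 and 1228 bases in WT and 1659, 1718 and 1742 in SCe lines. Gclm TPM, which allows for length, was 103 ± 2.38 in WT and 97.1 ± 6.52 in SCe lines and overlapped. With an offset for length the change was log2 -0.01 (adjusted p = 0.948). Nfe2l2 (log2 -0.96, adjusted p = 0.00367), Keap1 (log2 -0.48, adjusted p = 0.0131) and Mafg (log2 -0.56, adjusted p = 0.00583) fell in SCe organoids, while Bach1 did not pass the test (log2 0.56, adjusted p = 0.0853). Of 130 pathway genes tested, 25 rose and 40 fell, and the non-members with the smallest adjusted p were Ggct (log2 1.65, adjusted p = 0.00159), Slc48a1 (log2 0.93, adjusted p = 0.00169), Ggt6 (log2 -1.41, adjusted p = 0.0017) and Blvrb, a biliverdin reductase (log2 1.27, adjusted p = 0.00202).

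Rptor fl/fl and SCe organoids were also compared directly in RNA-seq, with the same lines as above, so that this comparison is not independent of the previous ones. As before, the RPL22.HA tag was carried by the SCe lines and not by the Rptor fl/fl lines. Here 2 members were higher in Rptor fl/fl and 5 lower, against 21.0% and 21.8% of 15103 genes. Hmox1 was 4.28-fold lower (log2 -2.10 ± 0.275 SE, adjusted p = 0.00458), Srxn1 2.67-fold lower (log2 -1.42 ± 0.171, adjusted p = 0.00367), Gpx2 2.07-fold lower (log2 -1.05 ± 0.137, adjusted p = 0.0046), Gclm 1.54-fold lower (log2 -0.62 ± 0.162, adjusted p = 0.0312) and Txnrd1 1.52-fold lower (log2 -0.60 ± 0.0985, adjusted p = 0.00812). Gpx1 was 2.51-fold higher (log2 1.33 ± 0.0990, adjusted p = 0.00135) and Gpx4 1.54-fold higher (log2 0.62 ± 0.161, adjusted p = 0.0301). The groups did not overlap for any of these 7 genes, but the genes were picked as called from the same values, so this adds no separate support. Gpx1, Gpx2, Srxn1 and Hmox1 were called in all 5 fits that left out a line, Txnrd1 in 4 (not without Rptor fl/fl line 2, adjusted p = 0.0586), Gpx4 in 2 (not without either Rptor fl/fl line or SCe line 2, up to 0.166) and Gclm in 1 (only without SCe line 1, 0.00146). Gclc passed the test without SCe line 1 (adjusted p = 0.00493). With the length offset Gclm was at log2 -0.16 (adjusted p = 0.43) and Gpx4 at log2 0.60 (adjusted p = 0.0514).

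**Figure D3:**
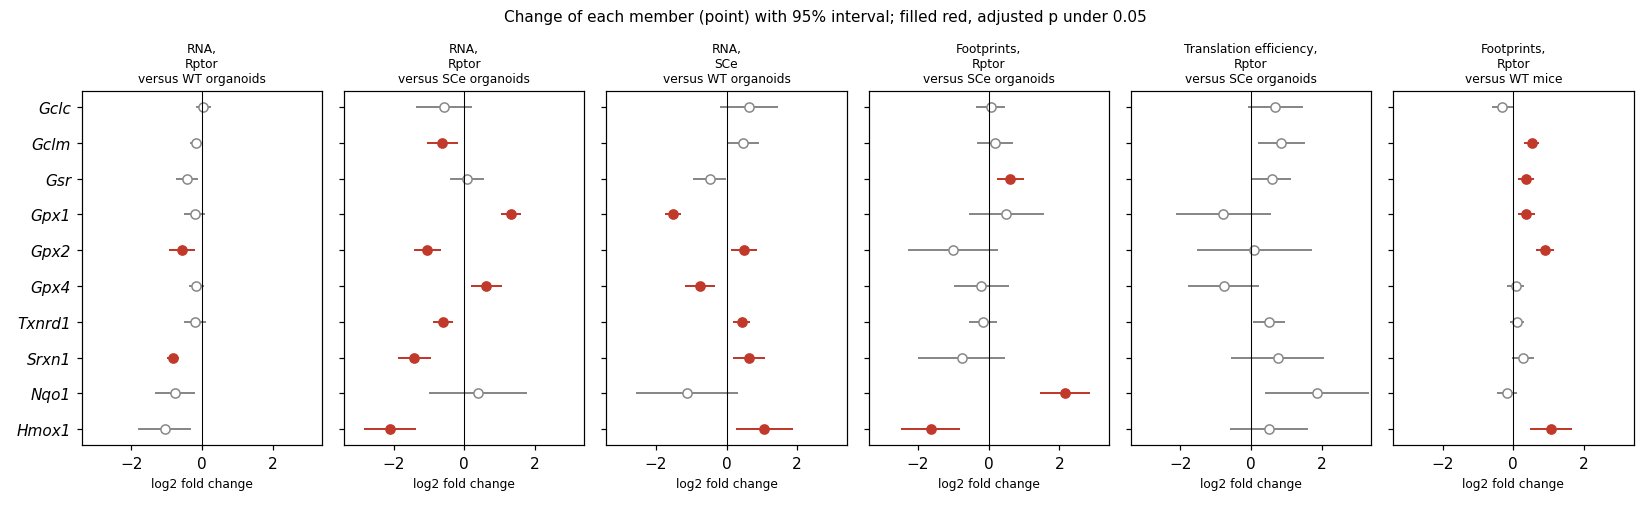
Log2 fold change (x axis) of each gene in the 6 planned comparisons, with 95% intervals from edgeR. Filled red points passed an adjusted p of 0.05, and open grey points did not. The changes of Srxn1, Gpx2 and Hmox1 lie left of 0 in both panels of Rptor RNA, while those of Gpx2 and Hmox1 lie right of 0 in mice.

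Among the non-members, Blvrb (log2 -2.38, adjusted p = 0.00107), the stress protein Sesn3 (log2 -2.22, adjusted p = 0.00108), Taldo1 (log2 -1.08, adjusted p = 0.00122) and Ggct (log2 -1.91, adjusted p = 0.00138) were lower in Rptor fl/fl than in SCe RNA, and of 130 pathway genes tested 21 were higher and 35 lower. Nfe2l2 (log2 1.48, adjusted p = 0.00156), Mafg (log2 0.99, adjusted p = 0.00143) and Keap1 (log2 0.35, adjusted p = 0.0282) were higher, and Bach1 did not pass the test (log2 -0.47, adjusted p = 0.125). Markers of several differentiated cells differed between the same groups, with the goblet sum at 2906 to 4089 CPM in Rptor fl/fl and 235 to 462 in SCe lines. Their part was not tested.

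Ribosome footprints of Rptor fl/fl and SCe organoids were compared next (3 cultures each). Nqo1 and Gsr were higher and Hmox1 was lower, against 6.63% higher and 9.84% lower of 10817 genes. Nqo1 had 79.3, 78.2 and 70.8 footprint CPM in cultures labelled Rptor fl/fl and 16.2, 27.3 and 11.1 in SCe. This 4.48-fold difference (log2 2.16 ± 0.296 SE, adjusted p = 0.00278) was called in all 6 fits that left out a culture, and rested on 30 to 48 footprints per SCe library. Gsr had 254, 298 and 275 footprint CPM against 179, 193 and 172, or 1.52-fold (log2 0.61 ± 0.156, adjusted p = 0.0313). Hmox1 had 5.81, 10.3 and 11.2 against 41.7, 17.9 and 25.6, or 3.13-fold less (log2 -1.65 ± 0.358, adjusted p = 0.016). The Gsr call was lost without any of the Rptor fl/fl cultures (adjusted p 0.0883 to 0.155) and the Hmox1 call without Rptor fl/fl culture 1 (0.0605) or 2 (0.0566). With a length offset only the call of Nqo1 held, with Gsr at 0.0766 and Hmox1 at 0.0675. Erythroid markers, which include heme-related genes, summed to 249, 1.71 and 124 footprint CPM in the SCe cultures and to 1.46 to 4.65 in Rptor fl/fl, and stromal markers to 143 to 808 against 6.19 to 9.79. Their part in the Hmox1 difference was not tested.

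The 3 SCe cultures differed widely for the peroxidases. Gpx2 had 579, 585 and 538 footprint CPM in Rptor fl/fl cultures and 2327, 701 and 389 in SCe cultures 1 to 3 (log2 -1.01, adjusted p = 0.241). Gpx1 had 322, 283 and 275 against 387, 154 and 86.3 (log2 0.49, adjusted p = 0.497), and Gpx4 had 169.7, 184 and 175 against 329, 155 and 126 (log2 -0.21, adjusted p = 0.703). SCe culture 1 was the highest of all 6 cultures for Gpx1, Gpx2, Gpx4, Txnrd1, Srxn1 and Hmox1. Without it, Gpx1 was higher in Rptor fl/fl (log2 1.34, adjusted p = 0.00424), and without SCe culture 3 Gpx2 was lower (log2 -1.41, adjusted p = 0.0487). Srxn1 had only 9 to 58 footprints in a library, which leaves 5.71 to 7.30 against 4.84 to 22.7 CPM (adjusted p = 0.359). Gclc, Gclm and Txnrd1 overlapped between the groups, with changes of log2 -0.15 to 0.17.

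Of 120 pathway genes tested on ribosomes, 14 were higher and 14 lower. The 4 non-members with the smallest adjusted p were the glutathione transferases Gsta2 (log2 4.51 ± 0.326 SE, adjusted p = 2.95e-04) and Gsta3 (log2 2.38 ± 0.204, adjusted p = 4.98e-04), which were higher in Rptor fl/fl cultures, and Blvrb (log2 -1.76, adjusted p = 0.00166) and the epoxide hydrolase Ephx1 (log2 -1.22, adjusted p = 0.0021), which were lower. Gsta2 and other transferases have near-identical copies, among which reads may be split. Nfe2l2 footprints were 291, 222 and 268 CPM against 140.1, 154 and 152 (log2 0.81, adjusted p = 0.0136), Mafg (log2 0.81, adjusted p = 0.115), Keap1 (log2 0.68, adjusted p = 0.112) and Bach1 (log2 -0.0049, adjusted p = 0.993) did not pass. Enterocyte markers, with a sum of 8206 to 8716 CPM in Rptor fl/fl and 976 to 3563 in SCe cultures, moved with these differences, and their part was not tested.

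Translation efficiency, the change in footprints beyond the change in mRNA, was tested as the interaction of assay and group. The groups were again Rptor fl/fl and SCe organoids, so Rptor genotype and medium cannot be told apart. No member passed edgeR's quasi-likelihood test at an adjusted p of 0.05 (1.12% higher and 1.81% lower of 10747 genes), while 4 members had an unadjusted p under 0.05, as did 2177 of all genes tested. DESeq2 called 1 member, Txnrd1 (log2 0.50, adjusted p = 0.0275), and 1206 genes in all. The 4 were Nqo1 (log2 1.86, 95% interval 0.41 to 3.30, adjusted p = 0.145), Gclm (log2 0.86, 0.22 to 1.49, adjusted p = 0.135), Gsr (log2 0.59, 0.07 to 1.11, adjusted p = 0.197) and Txnrd1 (log2 0.51, 0.08 to 0.93, adjusted p = 0.173), all toward more footprints per mRNA in Rptor fl/fl. The selenoenzymes did not share a direction. Gpx1 (log2 -0.78, -2.10 to 0.53), Gpx4 (log2 -0.77, -1.75 to 0.20) and Gpx2 (log2 0.09, -1.51 to 1.70) had intervals that crossed 0. That of Txnrd1, also a selenoenzyme, lay above 0. With an offset for length Gclm stood at log2 0.37 (adjusted p = 0.577). Leaving out SCe Ribo-seq culture 1 gave 4 calls, Gclm (adjusted p = 0.0426), Gpx2 (0.0477), Txnrd1 (0.0359) and Srxn1 (0.0201), all higher, and leaving out SCe RNA line 1 gave 2, Gclc (0.0376) and Nqo1 (0.0166). The calls over all genes also moved, from 120 higher and 195 lower to 951 without that culture and to 706 without that line. The median member change was log2 0.55, against -0.03 for all genes.

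Among 120 pathway genes, 3 were called higher and 2 lower in translation efficiency. Slc7a11 had the smallest adjusted p, at log2 3.93 ± 0.538 SE (adjusted p = 0.00772). Its mRNA was at 14.1 and 11.2 CPM in Rptor fl/fl and 134, 245 and 234 in SCe lines (log2 -4.01, adjusted p = 0.00179), whereas its footprints were at 54.1, 45.7 and 53.6 against 39.5, 31.6 and 90.4 CPM (log2 -0.13, adjusted p = 0.832). Sesn3 was higher (log2 1.34, adjusted p = 0.0224), as was Gsta3, named after its value was seen (log2 1.53, adjusted p = 0.045), and the ferritin light chain Ftl1 (log2 -1.72, adjusted p = 0.0261) and Abcc3 (log2 -1.16, adjusted p = 0.0414) were lower. Nfe2l2 (log2 -0.61, adjusted p = 0.138), Keap1 (log2 0.40, adjusted p = 0.487), Bach1 (log2 0.51, adjusted p = 0.411) and Mafg (log2 -0.10, adjusted p = 0.941) did not pass. Rptor itself stood at log2 1.43 in this test (adjusted p = 0.0777). Its mRNA was lower in Rptor fl/fl than in SCe (log2 -1.89, adjusted p = 0.00105), while its footprints did not pass (log2 -0.53, adjusted p = 0.318). Whether the Rptor fl/fl organoids of the 2 assays had lost Rptor to the same degree was not tested. They also differed in genotype by the RPL22.HA tag, so tag and assay cannot be told apart in that group. Cell type markers moved in this test too, with 3 of 6 goblet markers called lower and 0 higher (median log2 -2.62). All 5 Paneth cell markers tested lay above 0 (median log2 1.09), with 0 called. The part of these markers in the translation efficiency values was not tested.

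The organoid Ribo-seq tables count footprints on 5′ leaders apart from coding sequences. Leader footprints were 2.97 to 6.99% of all footprints in a library. Txnrd1 had 118, 142 and 148 leader footprints (7.34, 8.11 and 6.86% of its total) in Rptor fl/fl cultures and 76, 33 and 38 (11.6, 9.51 and 3.38%) in SCe. Gclc had 46, 67 and 68 (11.3, 14.8 and 11.7%) against 35, 11 and 14 (23.2, 12.6 and 5.96%). Hmox1 had 7, 11 and 12 (16.7, 14.5 and 11.5%) against 24, 7 and 7 (23.8, 25.0 and 5.93%). Gclm had 5.02 to 7.24% in Rptor fl/fl cultures and 8.17 to 15% in SCe. These 4 genes lay above the share of their own library in every culture, and the shares of Gclc, Hmox1 and Txnrd1 overlapped between the groups. Gpx2 was at 0.0593 to 0.486% in the 6 cultures, Gsr had 1 leader footprint in all, and none was counted for Gpx4 and Srxn1.

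Mouse footprints compared the mice labelled Rptor fl/fl with WT mice. Footprints of Gpx2, Gclm, Hmox1, Gsr and Gpx1 rose in Rptor fl/fl mice and none fell, against 7.47% higher and 5.97% lower of 11515 genes. Gpx2 had 73.0, 84.1 and 76.5 footprint CPM in WT and 159, 125 and 154 in Rptor fl/fl mice. It was 1.86-fold higher (log2 0.90 ± 0.107 SE, adjusted p = 3.97e-05). Gclm had 111, 109 and 95.2 against 150.2, 141 and 149.8, or 1.43-fold (log2 0.52 ± 0.0895, adjusted p = 0.00119). Both genes were called in all 6 fits that left out a mouse and under every alternative tried.

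The other 3 rises were less firm. Hmox1 had 5.03, 4.54 and 5.45 footprint CPM in WT and 7.87, 13.3 and 10.9 in Rptor fl/fl mice, from 4, 10 and 30 and from 24, 44 and 87 footprints (log2 1.07 ± 0.267 SE, adjusted p = 0.0152). Gsr had 153, 169 and 147 against 183, 198 and 216 (log2 0.36 ± 0.0903, adjusted p = 0.0163). Gpx1 had 142, 111 and 109.8 against 137, 153 and 161 and overlapped (log2 0.37 ± 0.104, adjusted p = 0.0279). Their calls were lost without Rptor fl/fl mouse 2, Rptor fl/fl mouse 3 or WT mouse 3 (adjusted p 0.062 to 0.191 over the 3 genes), those of Hmox1 (0.0654) and Gpx1 (0.129) also without WT mouse 2, that of Hmox1 under DESeq2 (0.0798), and all 3 with a length offset (0.0713 to 0.0778). WT mouse 1, with 772077 footprints, was the shallowest library.

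The members that did not pass in mice were Gclc, Nqo1, Gpx4, Txnrd1 and Srxn1. Gclc was lower in every Rptor fl/fl mouse, at 35.1, 32.8 and 33.3 footprint CPM against 40.3, 45.4 and 39.6 in WT (log2 -0.31, adjusted p = 0.118), so that the ligase subunits Gclc and Gclm lay on opposite sides of 0. Nqo1 had 57.9, 56.3 and 51.4 in WT and 54.4, 45.2 and 44.4 in Rptor fl/fl mice (log2 -0.19, adjusted p = 0.338). Srxn1 (log2 0.27, adjusted p = 0.216) passed among the fits that left out a mouse only without Rptor fl/fl mouse 1 (log2 0.38, adjusted p = 0.0298). Txnrd1 was at log2 0.11 (95% interval -0.07 to 0.28) and Gpx4 at log2 0.07 (-0.14 to 0.28).

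The wider pathway list had 17 genes higher and 1 lower of 122 tested in mice, the lower one being the exporter Abcc2 (log2 -0.51, adjusted p = 9.64e-04), named after its value was seen. Leading non-members were the ferritin heavy chain Fth1, which stores iron (log2 0.55 ± 0.0824 SE, adjusted p = 3.66e-04), the plasma selenoprotein Selenop (log2 0.44 ± 0.0710, adjusted p = 6.58e-04), Sesn1 (log2 0.72 ± 0.117, adjusted p = 6.66e-04) and Lpcat3, which remodels membrane lipids (log2 0.59 ± 0.0967, adjusted p = 7.05e-04). Nfe2l2 (log2 0.06, adjusted p = 0.726), Keap1 (log2 -0.02, adjusted p = 0.972), Bach1 (log2 0.10, adjusted p = 0.606) and Mafg (log2 -0.60, adjusted p = 0.144, 4.59 to 6.29 against 7.55 to 8.72 footprint CPM) did not pass the test. Erythroid markers rose in the same mice, with 4 of 4 tested genes higher and a sum of 812 to 986 footprint CPM in Rptor fl/fl against 153 to 177 in WT. Immune markers (4 of 10 higher, 567 to 592 against 463 to 499) and stromal and endothelial markers (5 of 7 higher, 1069 to 1339 against 882 to 911) rose too, and Paneth cell markers summed to 4657 to 6037 against 8574 to 9176. Sums were also higher for goblet (4 of 6 higher, 29754 to 33340 against 25153 to 25470) and enterocyte markers (3 of 8 higher, 1 lower, 54415 to 59017 against 48972 to 50214). Sums were lower for stem cell (2 of 5 tested lower, 348 to 531 against 551 to 577) and plasma cell markers (3 of 6 lower, 9890 to 10687 against 12148 to 12709). The part of these cells in the rises of Hmox1, Gpx1, Gpx2, Gclm and Gsr was not tested.

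To test whether the difference between Rptor fl/fl and WT was unequal in mouse footprints and organoid RNA, the gap between these 2 differences was fitted as an interaction, a comparison added after the values were seen. It differed for 6 members, all toward higher in mice, against 10.4% of 10644 genes called toward higher and 11.7% toward lower. The difference was log2 2.10 ± 0.397 SE for Hmox1 (adjusted p = 0.00309), 1.45 ± 0.172 for Gpx2 (adjusted p = 1.56e-04), 1.06 ± 0.155 for Srxn1 (adjusted p = 6.70e-04), 0.76 ± 0.144 for Gsr (adjusted p = 0.0032), 0.66 ± 0.113 for Gclm (adjusted p = 0.00164) and 0.55 ± 0.163 for Gpx1 (adjusted p = 0.03). For Gpx2 alone both single comparisons were called, and with opposite sign. The first 5 were called in all 10 fits that left out a line or mouse and Gpx1 in 4 (adjusted p up to 0.104, without WT mouse 3). Gpx1 was also not called without Rptor fl/fl mouse 2 (0.064) or 3 (0.0695), WT mouse 2 (0.0795), Rptor fl/fl line 1 (0.0901) or WT line 2 (0.091), while Nqo1 was called without Rptor fl/fl line 2 (0.0365) or WT line 1 (0.0191). Nfe2l2 (log2 -0.44, adjusted p = 0.0415) and Mafg (log2 -1.02, adjusted p = 0.00315) differed toward lower in mice, and Keap1 (log2 0.12, adjusted p = 0.71) and Bach1 (log2 0.01, adjusted p = 0.969) did not pass. Of 121 pathway genes 32 differed toward higher in mice and 9 toward lower, led among non-members by Ggt1 (log2 3.17, adjusted p = 2.96e-07), Dio1 (log2 2.52, adjusted p = 4.78e-05), Taldo1 (log2 1.05, adjusted p = 5.51e-05) and Sesn1 (log2 1.35, adjusted p = 3.57e-04). Rptor itself differed (log2 1.41, adjusted p = 6.59e-05), being lower in organoid RNA (log2 -1.71) and not passing the test in mouse footprints (log2 -0.28). Assay, culture against tissue, the Cre driver and the tamoxifen schedule given in the methods all change together between these data. So does the RPL22.HA tag, which was on both mouse groups but only on WT among these organoids. These cannot be told apart.

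**Figure D4:**
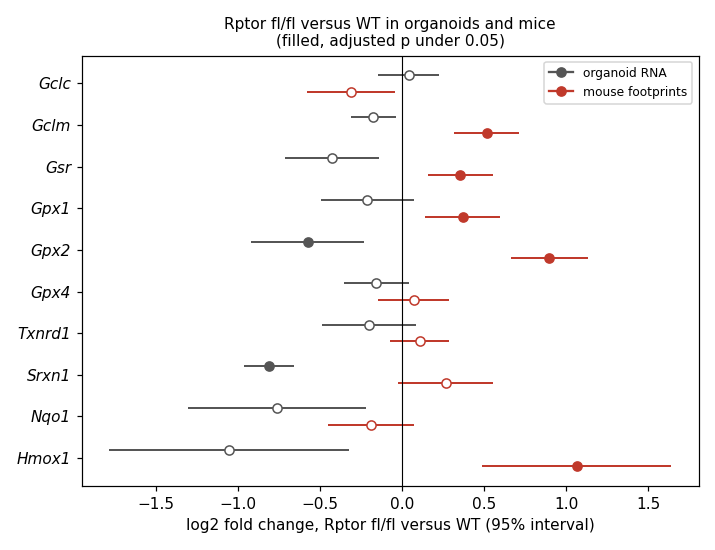
Log2 fold change of Rptor fl/fl against WT (x axis) with 95% intervals for organoid RNA (grey, 2 lines against 2) and mouse footprints (red, 3 mice against 3). Filled points passed an adjusted p of 0.05. Gpx2 lies at -0.57 in organoid RNA and at 0.90 in mouse footprints, and Hmox1 at -1.05 and 1.07.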

How the data were processed

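Organoid RNA-seq (TruSeq Stranded mRNA) and Ribo-seq of HA-tagged ribosomes were processed by the authors with cutadapt 1.18 and Salmon 1.1.0, names and versions as in the submitters' processing notes, against GENCODE vM21 protein-coding sequences of mm10. The deposited files give, per transcript, estimated counts, TPM and effective length. A deposited table of the authors' translation efficiencies, fold changes and p-values was not used. Estimated counts were summed per gene, leaving out entries marked as 5′ leaders in the organoid Ribo-seq files, and rounded. The mouse Ribo-seq entries carry no such mark. For the same transcripts they were longer than the organoid coding entries (Gclm 1285 against 871 bases, Hmox1 1030 against 916). Mouse counts therefore cover sequence that the organoid Ribo-seq counts leave out. The technical libraries of each WT and Rptor fl/fl RNA-seq line were summed, giving n = 2. The labels do not say that all replicates came from separate animals, so p-values measure the spread between these samples.

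Genes were filtered with filterByExpr, normalized by TMM and tested with edgeR 4.0.16 in R 4.3.3 (quasi-likelihood, Benjamini-Hochberg over all genes tested, threshold 0.05), with only the compared groups in each fit. Translation efficiency and the difference between mice and organoids were interaction terms. The code was tested on simulated data. Alternatives were DESeq2 1.42.0, no count filter, a length offset, a replicate block, technical libraries as replicates, all RNA-seq groups in one fit, and leaving out each sample. Comparisons share samples: the RNA-seq groups enter several, and translation efficiency reuses the RNA-seq and Ribo-seq groups. The members, the 132 pathway genes (131 found in the tables) and the marker lists were chosen with earlier results of these data known. Among non-members the text names Nfe2l2, Keap1, Bach1, Mafg and, per comparison, the 4 that ranked first by adjusted p. Outside this rule, Txnip, Abcc2 and, for translation efficiency, Gsta3 were named after their values were seen.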

Additional observations from a re-analysis of the deposited data

Results flagged for a closer look

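For 6 members the difference between samples labelled Rptor fl/fl and WT was itself unequal between mouse footprints and organoid RNA by a test of that inequality, all toward higher in mice: it was log2 0.66 for Gclm, 0.76 for Gsr, 0.55 for Gpx1, 1.45 for Gpx2, 1.06 for Srxn1 and 2.10 for Hmox1. Assay, tissue, Cre driver, tamoxifen schedule and RPL22.HA tag change together between the sets and cannot be told apart. Among the technical libraries of the RNA-seq lines, 1 Gclc library in WT (189.8 CPM, nearest other 169) and 1 Gclm library in Rptor fl/fl (87.3, nearest other 91.0) stood apart from the other 3, with a gap of 0.836 and 0.831 of the group's range. The cutoff used (Dixon test) flags about 1 in 20 groups by chance when all values are independent. The libraries here were technical repeats of the same lines, so the rate for the 20 groups examined is not known.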

How the results depend on the processing

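Of 900 fits of single members under alternatives, 773 kept direction and side of the threshold, 67 lost a call, 47 gained one, 13 moved without a call and none reversed a called direction. The number of members called in Rptor fl/fl against WT RNA (2) was 5 with DESeq2, 5 with no count filter, 8 with technical libraries as replicates, 1 with all RNA-seq groups in one fit and 1 to 2 when a line was left out. Over all genes of that comparison, 1637 higher and 1558 lower became 7208 calls with technical libraries as replicates and 1544 with one fit. Leaving out a line changed the members called from 7 to between 4 and 8 against SCe RNA, and from 6 to between 1 and 9 in SCe against WT. Organoid footprints (3) gave 1 with the length offset and 1 to 4 without a culture. Translation efficiency (0) gave 1 with DESeq2, 3 with technical libraries as replicates and 0 to 4 without a sample, and mice (5) gave 2 with the length offset and 2 to 6 without a mouse. For the pathway list the counts were 46 in Rptor fl/fl against WT RNA (technical libraries as replicates 89, one fit 26, leaving out a line 24 to 40), 56 against SCe RNA (26 to 84), 65 in SCe against WT (20 to 104), 28 in organoid footprints (length offset 14, without a culture 17 to 46), 5 in translation efficiency (DESeq2 11, length offset 1, technical libraries as replicates 13, without a sample 0 to 15) and 18 in mice (length offset 7, without a mouse 8 to 21). Replicate numbers were shared by label only, and same-numbered Ribo-seq samples did not deviate together (correlations of -0.0541 to 0.0268). Same-numbered RNA-seq lines, with 2 shared numbers, correlated at 0.219 to 0.416. Differently numbered RNA-seq lines ranged from -0.416 to 0.296. Rptor fl/fl line 2 correlated at 0.296 with SCe line 3 and at 0.294 with SCe line 2, so these values cannot establish pairing. With a replicate block the members called were 5 in Rptor fl/fl against WT RNA, 5 against SCe RNA, 3 in SCe against WT RNA, 2 in organoid footprints, 0 in translation efficiency, 4 in mice and 7 for the difference between mice and organoids, and the pathway counts were 65, 38, 36, 21, 0, 12 and 48. The cause of these shifts was not tested. Depth limits the Ribo-seq values of Srxn1 and Hmox1 most, with as few as 9 and 4 footprints in a library.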
